A study of Arabidopsis thaliana with 18 samples.

Results

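The ERF and DREB genes of *Arabidopsis thaliana* encode plant transcription factors that carry an AP2 DNA-binding domain. Here they were taken from the RefSeq annotation of the TAIR10.1 genome by name and product: a protein-coding gene was a member when its symbol was ERF or DEAR with a number, or began with RAP2, DREB, DDF, ESE, HRE or ORA, or when its product or note read as an integrase-type DNA-binding protein. The cytokinin response factors *CRF1* to *CRF10* and the cold regulators *CBF1* to *CBF4* were left out, which removed 5 genes. The rule gave 114 members of 27444 nuclear protein-coding genes, 45 by symbol and 81 by product or note, 12 of them by both. RefSeq notes placed 50 members in the DREB subfamilies (A-1 to A-6) and 50 in the ERF subfamilies (B-1 to B-6). The other 14 carried no subfamily note. They included *AP2*, *ANT*, *BBM*, *PLT1*, *PLT2*, *SMZ*, *SNZ*, *RAP2.7*, *WRI1* and *WRI4*, which belong to the AP2 branch with a pair of AP2 domains and are ERF or DREB genes only in the sense of the rule.

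The study mapped where proteins of the SWI/SNF chromatin remodelling machinery sit on chromatin by ChIP-seq, the sequencing of DNA fragments that come down with a tagged protein. The 4 libraries used here came from 14-day-old seedlings of the *brm-1* mutant, which affects the SWI/SNF ATPase BRAHMA (BRM), and carried either BRIP2-GFP (2 replicates) or BRIP1-GFP (2 replicates). All are titled as immunoprecipitates, and the labels name an antibody to GFP except for BRIP1-GFP replicate 2, whose antibody label reads none. BRIP1 and BRIP2 (BRM Interacting Protein 1 and 2) are named for their interaction with BRM. All 4 libraries therefore shared the *brm-1* background, and none came from plants with wild-type BRM or without a GFP tag. The promoter that drives the tagged genes and the number of transgenic lines are not given in the sources used here. The titles mark the replicates only as bio with a number. Nothing says whether they came from separate plantings, so the tests measure only the spread between these libraries. A peak is a stretch of DNA that the authors' peak caller found enriched over a local control in one library, its summit is the most enriched base, and its fold is the ratio of fragments to control at the summit.

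ERF and DREB proteins turn hormone and stress signals into transcription. Ethylene stabilises the transcription factor EIN3, which switches on ERF genes, and many ERF proteins bind the GCC box (GCCGCC), whereas DREB proteins bind the dehydration-responsive element (DRE/CRT, ACCGAC or GCCGAC). ERF subfamily B-3 holds activators of defence genes, B-1 holds repressors with an EAR motif, and B-2 holds the oxygen-sensing factors that drive the hypoxia response. DREB subfamily A-2 holds the drought and heat factor DREB2A, and A-5 and A-6 hold further stress-related factors.

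The lists held 7877 and 6288 nuclear peaks for BRIP2 and 3637 and 5343 for BRIP1. Sequencing depth is unknown from the peak lists, but the number of fragments at a summit could be solved from the fold and the p-value of a peak, and came out whole within 0.05 for 99.90 and 99.95% of the BRIP2 peaks and 99.92 and 99.94% of the BRIP1 peaks. Background control was 29.7 and 23.2 fragments for BRIP2 and 31.5 and 41.2 fragments for BRIP1. The lowest fold listed at a summit whose control equalled that background was 1.63 and 1.73 for BRIP2 and 1.69 and 1.59 for BRIP1. A member without a peak was thus not detectable above that level and is not shown to be free of either protein.

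A gene's window reached from 3000 bp before its transcription start site (TSS) to 1000 bp beyond its 3′ end, and the gene was called in a library that had a summit inside it. ERF and DREB genes were called often: 42 of 114 (36.8%) had a summit in all 4 libraries, against 14.9% of all protein-coding genes. For BRIP2, 59 members were called in both libraries, against a background of 26.7%. For BRIP1, 45 members were called in both, against 15.8%. No library called 31 members, where the share over all genes was 60.4%.

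The windows of members were not like those of other genes. They were shorter, with a median of 5266.5 bp for members and 6078 bp for all genes, because the genes themselves were shorter (1266.5 bp for members and 2078 bp for all genes). They also held more DNA outside genes, where most summits lay: the median was 2996.5 intergenic bases for members and 1697 for all genes. In classes chosen after the counts had been seen, the members' share in all 4 libraries was 4 of 12 (33.3%) with under 1500 intergenic bases, 17 of 45 (37.8%) with 1500 up to 3000, and 21 of 57 (36.8%) with 3000 or more. Among all genes, the shares in these classes were 10.2%, 16.2% and 22.9%. The members' share was above that of all genes in each class, by a margin that was smallest where intergenic DNA was longest.

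BRIP2 libraries called 79 and 62 members and BRIP1 libraries 46 and 64. The BRIP2 counts averaged 70.5 ± 12 and the BRIP1 counts 55 ± 12.7 (SD, n = 2 each), a difference of 15.5 members (exact permutation test, two-sided, p = 0.667, where the smallest p this design allows is 0.33). The ranges of the proteins overlapped, and the longest and the shortest peak list gave the highest and the lowest count. With lists cut to the 3637 best peaks of each library, the difference was 1 member.

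Members called for only 1 of the proteins were few. *SHN1* (also *WIN1*), an inducer of wax synthesis, AT2G33710 and AT2G41710 had a summit in both BRIP2 libraries and neither BRIP1 library, which is 3 of 114 members against 5.62% of all genes. Their folds were low: 2.18 and 2.06 for BRIP2 at *SHN1*, 2.15 and 2.06 at AT2G33710, and 2.33 and 2.49 at AT2G41710. The reverse pattern, with both BRIP1 but no BRIP2 library, was found for 0 members, against 0.135% of all genes.

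Calls were unevenly spread over the subfamilies. In B-3, 12 of 16 members (75.0%) were called in all 4 libraries, and in B-6 none of 9 was. The DREB subfamily A-5 had 7 of 14, A-6 had 4 of 9, the repressor-rich B-1 had 5 of 14, and A-4 had 4 of 16. Smaller subfamilies gave 2 of 4 in B-2, 2 of 8 in A-2, 1 of 7 in B-4, 1 of 2 in A-1 and 0 of 1 in A-3. DREB members as a whole had 18 of 50 (36.0%) and ERF members 20 of 50 (40.0%), while those without a note had 4 of 14 (28.6%). These subfamilies share sequence and, in places, neighbouring positions on a chromosome, and no test was made between them.

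**Figure D1:**
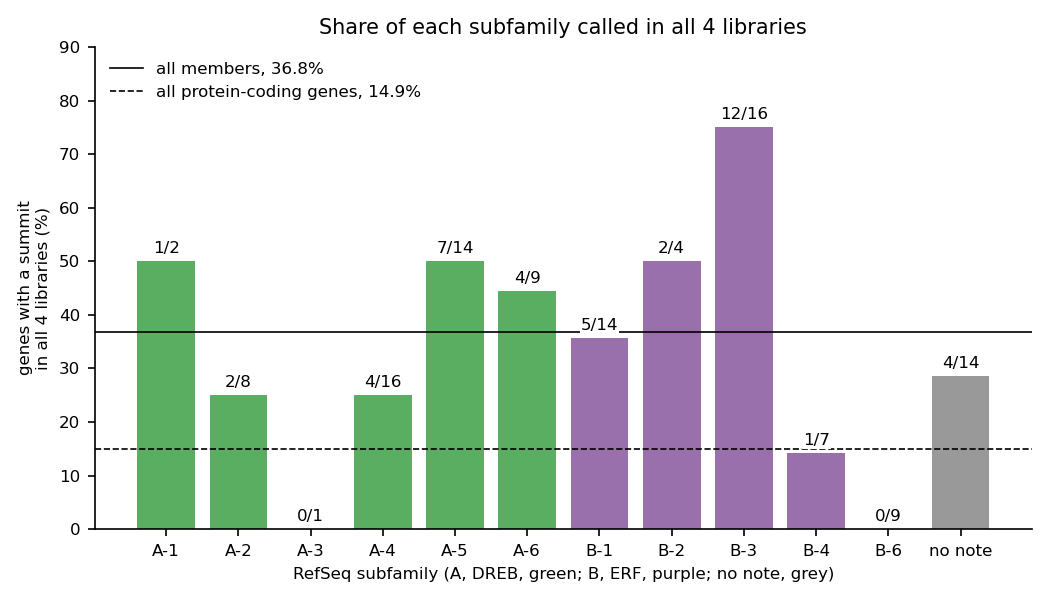
Percentage of the members of each RefSeq subfamily (x axis; DREB subfamilies A-1 to A-6, ERF subfamilies B-1 to B-6, and members with no subfamily note) with a summit in all 4 libraries (y axis), with the count over each bar. The solid line is the share of all members (36.8%) and the dashed line that of all protein-coding genes (14.9%), and B-3 stood highest with 12 of 16.

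Folds at the called members were close to those at other called genes. Over the 42 members called in all 4 libraries, the median fold of the best summit was 3.60 and 3.38 in the BRIP2 libraries and 2.74 and 3.02 in the BRIP1 libraries. Over the 4094 genes called in all 4 libraries, the medians were 3.36 and 3.18 for BRIP2 and 2.65 and 2.82 for BRIP1. The members' folds ran from 2.38 to 7.49 and from 2.35 to 6.93 in the BRIP2 libraries, and from 1.91 to 5.57 and from 1.90 to 7.30 in the BRIP1 libraries.

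**Figure D2:**
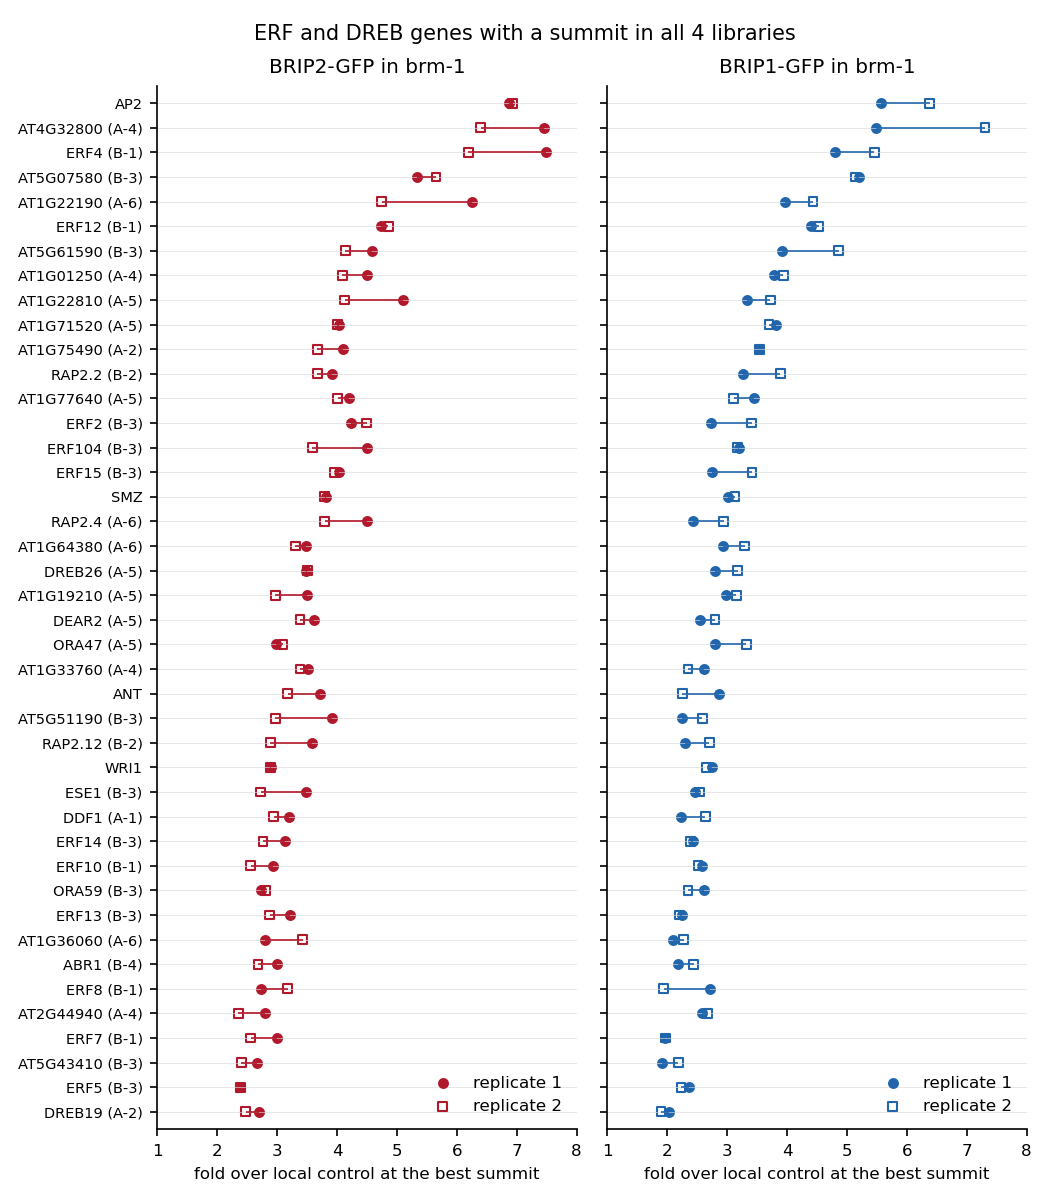
Fold over local control at the best summit (x axis) of each of the 42 members called in all 4 libraries (rows, with the RefSeq subfamily in brackets), for BRIP2-GFP (left) and BRIP1-GFP (right). Filled circles are replicate 1, open squares are replicate 2, lines join them, and rows run from the best to the worst mean rank, with *AP2*, AT4G32800 and *ERF4* at the top.

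To compare proteins at the same place, overlapping peaks were joined into 2982 regions that held a peak of all 4 libraries, and 52 of these had their mean summit in the window of a member. They belonged to 40 members, and 12 members had more than 1. *ORA59* and *RAP2.4* were called in all 4 libraries without such a region. The best-ranked of them was that of *AP2*, the floral organ identity gene, at chr4:17397189-17399517, 2838 bp upstream of its TSS in intergenic DNA. It had folds of 6.87 and 6.93 for BRIP2 and 5.57 and 6.38 for BRIP1. Its BRIP2 values were the higher ones and the proteins did not overlap, but on the log2 scale, with each library centred on its median over all regions so that only relative differences remain, the difference was -0.02 ± 0.12 (SE; limma adjusted p = 0.938). It ranked 12 of the 2982 regions by mean rank of fold. Over all regions, the median log2 difference without centring was 0.22 in favour of BRIP2. Higher BRIP2 folds as deposited are therefore not particular to a member.

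AT4G32800, a DREB A-4 gene of the group of *TINY*, came next, with a region at chr4:15816770-15818306 and a mean summit 1806 bp upstream. Its folds were 7.46 and 6.40 for BRIP2 and 5.48 and 7.30 for BRIP1. The proteins overlapped, since the highest BRIP1 value lay between the BRIP2 values (centred log2 difference -0.11 ± 0.13, limma adjusted p = 0.706). The summit base lay in a non-coding exon. At the summits of this region the fragments counted 228 (95% Poisson interval 199 to 259.6) and 154 (131 to 180.3) for BRIP2, and 177 (152 to 205.1) and 307 (274 to 343) for BRIP1. These intervals cover counting error only.

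*ERF4* encodes an EAR-motif repressor of jasmonate- and ethylene-responsive defence genes. Its region at chr3:5119161-5120643 lay 1401 bp upstream of its TSS, and the nearest TSS was that of the neighbouring gene AT3G15200. Folds were 7.49 and 6.19 for BRIP2 and 4.80 and 5.45 for BRIP1. Both BRIP2 values exceeded both BRIP1 values, and after centring the difference was 0.18 ± 0.12 (limma adjusted p = 0.488).

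*ERF12*, another B-1 repressor gene, was called on both sides of the gene. The upstream region, 1662 bp before the TSS, had folds of 4.74 and 4.54 for BRIP2 and 4.40 and 4.53 for BRIP1. The region in the 3′ UTR, 1167 bp past the TSS, had 3.98 and 4.85 for BRIP2 and 3.42 and 3.99 for BRIP1. At the first region the BRIP2 values were both just above the BRIP1 values, and at the second the proteins overlapped. The centred log2 differences were -0.18 ± 0.12 and 0.01 ± 0.14. The other B-1 genes in all 4 libraries were lower: at *ERF7*, a repressor in abscisic acid responses, the folds were 3.0 and 2.56 for BRIP2 and 1.97 and 1.97 for BRIP1, 435 bp upstream. At *ERF10* the summit lay 310 bp past the TSS in the 5′ UTR, with 2.93 and 2.56 for BRIP2 and 2.59 and 2.51 for BRIP1. *ERF8* had best summits with folds of 2.74 and 3.18 for BRIP2 and 2.71 and 1.94 for BRIP1, which lay past its 3′ end in 3 libraries and 106 bp past its TSS in BRIP1 replicate 2. *LEP* and *PUCHI*, which act in leaf and lateral root or floral development, were called in no library, nor was *ESR1*, a shoot regeneration gene.

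Among the B-3 genes, AT5G07580 led, with a region 310 bp upstream that had folds of 5.05 and 5.65 for BRIP2 and 5.20 and 5.15 for BRIP1. The proteins overlapped there (centred log2 difference -0.19 ± 0.13, limma adjusted p = 0.453). A second region lay 1128 bp past the TSS, beyond its 3′ end, with 5.34 and 4.50 for BRIP2 and 3.74 and 4.64 for BRIP1. Its mean summit lay in an intron of another annotated gene. AT5G61590, named *DEWAX* as a repressor of wax synthesis, had a region 107 bp past its 3′ end, in the 3′ UTR of another annotated gene. Folds there were 4.58 and 4.14 for BRIP2 and 3.91 and 4.86 for BRIP1. The values of the proteins overlapped there too. A second region lay over its TSS, with 4.50 and 3.59 for BRIP2 and 3.20 and 3.18 for BRIP1. That region also fell in the window of *ERF104*, a target of stress-activated MAP kinases that lies next to it, and *ERF104* had no other region, and in BRIP2 replicate 1 and BRIP1 replicate 2 that peak over its neighbour's start was its only summit. It was the only region shared by windows of members.

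*ERF2*, an activator of GCC-box genes in jasmonate defence, had one of the widest separations among members. Its region 750 bp upstream had folds of 4.24 and 4.50 for BRIP2 and 2.74 and 3.41 for BRIP1, with both BRIP2 values above both BRIP1 values. The centred log2 difference was 0.28 ± 0.13, with an unadjusted limma p of 0.0442 and an adjusted p of 0.267. *ERF5*, its neighbour on chromosome 5, is a MAP kinase target in defence and growth. Its region had values of 2.38 and 2.38 for BRIP2 and 2.37 and 2.23 for BRIP1. The mean summit lay just past the 3′ end, but that of BRIP2 replicate 1 lay inside the gene, and the summits spread over 590 bp. *ERF6*, the close relative of *ERF5*, had folds of 2.15 and 2.31 for BRIP2 and 1.94 in BRIP1 replicate 1, with no peak in BRIP1 replicate 2. *ERF15*, a factor in abscisic acid responses, had a distal region 2066 bp upstream with 4.04 and 3.96 for BRIP2 and 2.74 and 3.42 for BRIP1, and a proximal region 221 bp upstream with 3.19 and 2.81 for BRIP2 and 2.62 and 2.51 for BRIP1. Both BRIP2 values were above both BRIP1 values in each as deposited. The centred log2 differences were 0.15 ± 0.12 at the distal region and -0.01 ± 0.12 at the proximal one. Lower folds were seen at the salt-inducible *ESE1*, with 3.49 and 2.72 for BRIP2 and 2.46 and 2.54 for BRIP1, and at *ERF14*, with 3.13 and 2.76 for BRIP2 and 2.43 and 2.4 for BRIP1. *ORA59*, which joins jasmonate and ethylene signals, had best folds of 2.74 and 2.81 for BRIP2 and 2.62 and 2.35 for BRIP1, but the summit of BRIP1 replicate 1 lay at -2072 bp from the TSS (negative upstream) and the other 3 lay at -157, -136 and -135 bp. AT4G18450 and *ERF1* (AT3G23240), the direct EIN3 target, were the B-3 members called in no library.

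The B-2 members, which form the oxygen-sensing group, split evenly. *RAP2.2*, 1165 bp upstream of its TSS, had folds of 3.91 and 3.67 for BRIP2 and 3.26 and 3.89 for BRIP1, and the proteins overlapped. *RAP2.12* had a region 349 bp upstream with 3.58 and 2.89 for BRIP2 and 2.30 and 2.47 for BRIP1, and a second region 1578 bp upstream with 2.83 and 2.64 for BRIP2 and 2.12 and 2.21 for BRIP1. Both BRIP2 values exceeded both BRIP1 values in each region of *RAP2.12* as deposited. The centred log2 differences were 0.19 ± 0.13 at 349 bp and 0.10 ± 0.12 at 1578 bp upstream. The TSS nearest the second region was that of AT1G53903. The hypoxia-inducible *ERF73* (*HRE1*) and *ERF71* (*HRE2*) were called only in BRIP2 replicate 1, at folds of 2.09 and 3.43. In B-4, *ABR1*, a repressor in abscisic acid responses, was called in all 4 libraries, with 3.0 and 2.68 for BRIP2 and 2.19 and 2.44 for BRIP1 at the region 705 bp upstream. The mean summit of that region lay in an intron of another annotated gene. AT5G07310 (*ERF115*), a regulator of stem cell division, was called in 3 libraries, and *RAP2.6* in 1.

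DREB genes in all 4 libraries were led, after AT4G32800, by the A-6 gene AT1G22190, which had 12 separate summits over the 4 libraries, the most of any member. Its upstream region at 1517 bp had folds of 6.26 and 4.75 for BRIP2 and 3.97 and 4.43 for BRIP1. A region 2912 bp upstream had 4.64 and 4.21 for BRIP2 and 3.14 and 3.87 for BRIP1, and a region whose mean summit lay in the coding exon had 3.55 and 3.05 for BRIP2 and 2.12 and 2.44 for BRIP1. Both BRIP2 values were above both BRIP1 values at all 3 places as deposited. The centred log2 differences were 0.14 ± 0.13, 0.11 ± 0.12 and, at the third, 0.30 ± 0.12 (limma adjusted p = 0.219). The TSS nearest the region 2912 bp upstream was that of AT1G22180. *RAP2.4* (*WIND1*), an A-6 gene that promotes dedifferentiation at wounds, had best folds of 4.50 and 3.80 for BRIP2 and 2.43 and 2.94 for BRIP1. Its best summit lay at -1028, -1040 and -989 bp from the TSS in 3 libraries and 1195 bp past it in BRIP1 replicate 1.

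AT1G64380, also of A-6, had the largest difference in favour of BRIP1 among member regions. That region, 2347 bp upstream, had folds of 2.22 and 2.09 for BRIP2 and 2.09 and 2.75 for BRIP1, and the proteins overlapped as deposited. Its centred log2 difference was -0.39 ± 0.13 (limma adjusted p = 0.137). A second region 1492 bp upstream had 3.49 and 3.30 for BRIP2 and 2.92 and 3.30 for BRIP1. With 11 summits each, AT1G64380, *RAP2.12* and AT5G61590 followed AT1G22190.

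The A-5 genes AT1G22810 and AT1G71520 had summits of the 4 libraries within 36 bp of each other. AT1G22810 had 5.10 and 4.13 for BRIP2 and 3.32 and 3.72 for BRIP1, 818 bp upstream, with no overlap of the proteins. Its centred log2 difference was 0.15 ± 0.13, and the nearest TSS was that of AT1G22830. AT1G71520 had 4.04 and 4.0 for BRIP2 and 3.82 and 3.70 for BRIP1, 337 bp upstream, again with no overlap and a centred log2 difference of -0.14 ± 0.12. In the same subfamily, *ORA47*, an activator of jasmonate synthesis genes, had folds of 2.98 and 3.10 for BRIP2 and 2.80 and 3.32 for BRIP1, with its best summits 160 and 119 bp past the TSS for BRIP2 but 2090 and 2104 bp past it for BRIP1. This spread of 1985 bp within one region was the largest among members. The TSS nearest the mean summit of the *ORA47* region was that of AT1G74929. In A-4, AT1G01250 had 4.50 and 4.08 for BRIP2 and 3.79 and 3.94 for BRIP1, 2589 bp upstream, where the nearest TSS was that of AT1G01260. In A-1, *DDF1*, which lowers gibberellin levels, had best folds of 3.19 and 2.94 for BRIP2 and 2.23 and 2.63 for BRIP1. These came from different places: -148 and -1125 bp from the TSS for BRIP2, and -1114 and 1555 bp for BRIP1. Its paralogue *DDF2* was called in no library.

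In A-2, AT1G75490 led with folds of 4.11 and 3.67 for BRIP2 and 3.54 and 3.53 for BRIP1 in its 3′ UTR, and it had a second region 276 bp upstream with 3.49 and 3.59 for BRIP2 and 2.71 and 3.34 for BRIP1. At both places the BRIP2 values exceeded the BRIP1 values as deposited. The centred log2 differences were -0.10 ± 0.12 in the 3′ UTR and -0.003 ± 0.13 upstream. *DREB19* was the weakest of the 42 by mean rank, with 2.70 and 2.48 for BRIP2 and 2.03 and 1.90 for BRIP1. *DREB2A* had folds of 2.1 and 2.05 for BRIP2 and 1.78 in BRIP1 replicate 2, with no peak in BRIP1 replicate 1, and *DREB2B* was called in BRIP2 replicate 2 alone at 1.98. *ABI4* in A-3, a factor in abscisic acid and sugar responses, and *TINY* in A-4 (written tny in RefSeq) were called in no library.

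Of the members with no subfamily note, *SMZ*, a repressor of flowering, had folds of 3.81 and 3.80 for BRIP2 and 3.02 and 3.13 for BRIP1, with summits within 13 bp of each other about 2450 bp upstream. *ANT*, a promoter of organ growth, had 3.71 and 3.18 for BRIP2 and 2.86 and 2.25 for BRIP1, 2870 bp upstream. *WRI1*, an activator of fatty acid synthesis genes, had even folds of 2.90 and 2.89 for BRIP2 and 2.74 and 2.66 for BRIP1 in an intron 2550 bp past the TSS. As deposited, both BRIP2 values were above both BRIP1 values at all 3. The centred log2 differences were 0.07 ± 0.12 at *SMZ*, 0.20 ± 0.14 at *ANT* and -0.13 ± 0.12 at *WRI1*. The root and embryo regulators *PLT1*, *PLT2* and *BBM* were called in no library.

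Most summits near members lay upstream of the TSS, as did most of those near all genes. In single libraries, 60.8 and 60.4% of member summits for BRIP2 and 70.1 and 66.7% for BRIP1 lay upstream of the TSS, against 61.4 and 63.3% for BRIP2 and 63.5 and 63.1% for BRIP1 over all genes. More than 1000 bp upstream lay 34.2 and 36.6% of member summits for BRIP2 and 41.8 and 35.5% for BRIP1, against 31.9 and 33.5% for BRIP2 and 35.7 and 34.5% for BRIP1 over all genes. No test was made of these shares. Of the 53 pairs of a member and a region, 37 had the mean summit upstream of the TSS, 24 of them by more than 1000 bp, 10 had it within the gene and 6 past the 3′ end. Intergenic DNA held 36 of the 52 regions (69.2%), against 71.2% of all 2982 regions. For single libraries, the member was the gene with the nearest TSS for 83.3 and 78.2% of its summits for BRIP2 and 83.6 and 84.9% for BRIP1, whereas over all genes these shares were 55.3 and 56.0% for BRIP2 and 58.1 and 57.9% for BRIP1. A peak counted once for each window that held it. In BRIP2 replicate 1 that made 13078 pairs from 7325 peaks over all genes and 120 pairs from 118 peaks for members. Members' windows held more intergenic DNA, and the part this played in the difference was not tested. The best summits of the 4 libraries lay within 150 bp of each other for 30 of the 53 pairs, and more than 500 bp apart for 10. Regions were joined from overlapping peaks, so part of this nearness was set by their definition.

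**Figure D3:**
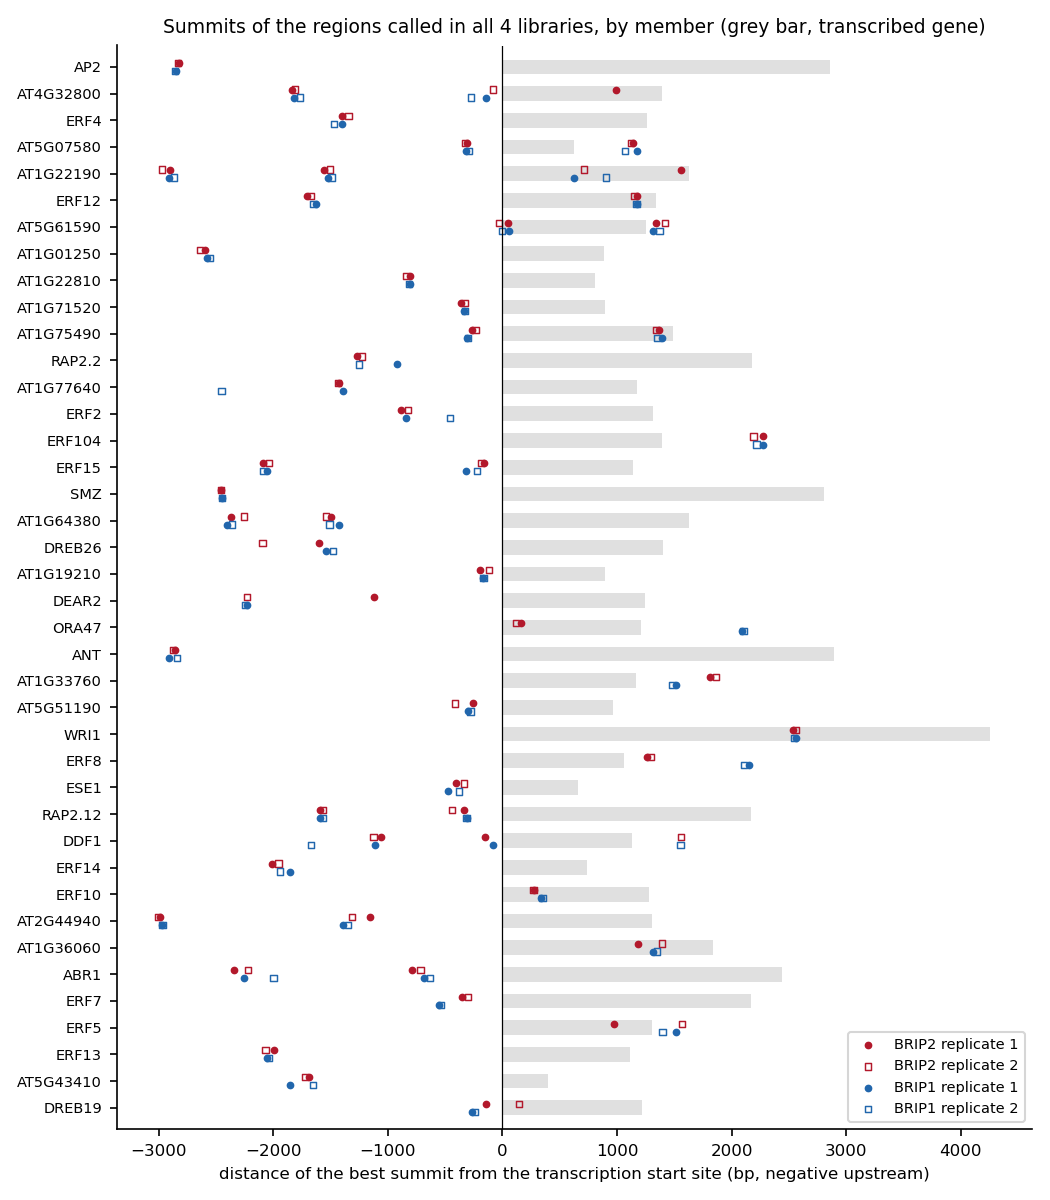
Distance of the best summit of each library from the TSS (x axis, bp, negative upstream) for the regions of 40 members (rows, ordered by their best-ranked region). Red is BRIP2-GFP and blue is BRIP1-GFP, filled circles are replicate 1 and open squares replicate 2, and grey bars are the transcribed genes. At *ORA47* the BRIP2 and BRIP1 summits lay apart, while at *SMZ* they lay within 13 bp.

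No member region passed the test between BRIP2 and BRIP1 after adjustment over all regions. limma on the centred log2 folds called 0 member regions at an adjusted p under 0.05, and over all 2982 regions it called 9 higher for BRIP2 (0.302%) and 24 higher for BRIP1 (0.805%). With so few calls over all regions, a count of 0 among 52 does not set the members apart. At an unadjusted p under 0.05 there were 4 member regions (those of AT1G64380 at 2347 bp upstream, AT1G22190 in the coding exon, *ABR1* at 2204 bp upstream and *ERF2*) and 526 regions in all. Centred differences over the member regions had a median of 0.03, against -0.01 over all regions, and ran from -0.39 to 0.30, with 28 of 52 above 0 and a median SE of 0.12. As deposited, without centring, folds were higher for BRIP2 at most regions but not at all, with a median log2 difference of 0.27 over member regions and 0.22 over all regions. That scale called 15 of 52 member regions (28.8%) higher for BRIP2, against 23.8% of all regions. The ratio of fragments to control depends on how much of a library is background, so a difference in protein level and a difference in enrichment efficiency cannot be told apart on that scale.

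**Figure D4:**
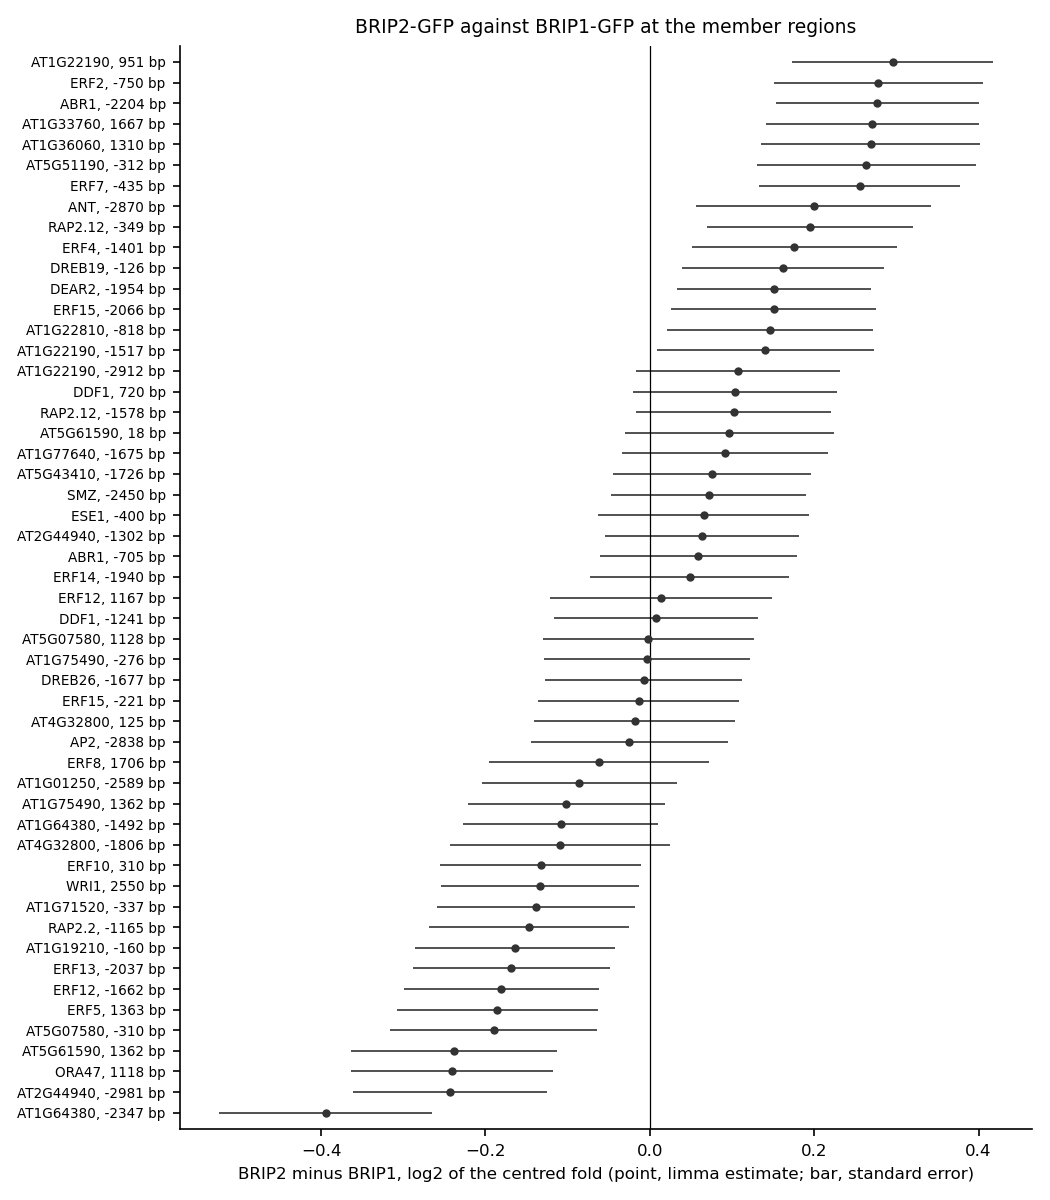
Difference between BRIP2-GFP and BRIP1-GFP at the 52 member regions (rows, with the distance of the mean summit from the TSS), as log2 of the fold after centring each library (x axis). Points are limma estimates and bars their standard errors (n = 2 libraries of each protein), and the estimates ran from -0.39 to 0.30 with none past the threshold.

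DNA around the mean summit of each region was searched for binding letters of these proteins and of other factors. In windows of 200 bp centred on the mean summit, on either strand, the GCC box was in 5 of 52 member regions (9.62%, 95% Wilson interval 4.18 to 20.6%), against 2.95% of all 2982 regions. DRE/CRT was in 3 member regions (5.77%), against 8.35%. The G-box (CACGTG) was in 15 (28.8%), against 19.0%, the W-box core (TTGAC) in 27 (51.9%), against 46.1%, the TCP site (GGNCCC) in 13 (25.0%), against 23.4%, and the GA repeat (GAGAGA) in 15 (28.8%), against 25.4%. The share over all regions lay within the 95% interval of the members' share for every motif but the GCC box. For the GCC box, the share over all regions was below that interval. The intervals treat the 52 regions as independent, although they came from 40 related members, 12 of which had additional regions. They also make no allowance for the number of motifs searched, so they are a description and not a test of enrichment. These members were chosen by name, and a match is a string of letters and not a measured binding site. Where summits of the libraries lay far apart, a window could hold none of them. That was so for the GCC box and TCP matches in the gene body of *DDF1* and the G-box and TCP matches upstream of *DDF1*. The same held for the G-box and TCP matches at *ERF8* and the G-box match at AT1G77640. It also held for the W-box core match at AT1G33760 and the GA repeat match in the 5′ UTR of AT4G32800.

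The 5 member regions with a GCC box were those of *ERF4*, the proximal region of *ERF15*, the proximal region of AT1G75490, the gene-body region of *DDF1* and that in the 5′ UTR of *ERF10*, and 4 of them, all but *DDF1*, also held a G-box. The 3 windows that lay wholly in intergenic DNA are printed to show how these letters are placed around the summit, with 1 window that holds a DRE/CRT (the distal region of *ERF15*) and that of *AP2*, the best-ranked member region, which held none of the 3. Each runs 5′ to 3′ on the strand of the gene (plus for *ERF4*, AT1G75490 and *AP2*, minus for *ERF15*), is read from TAIR10.1, and has GCC box, DRE/CRT and G-box matches on either strand in capitals. The *ERF4* window is chr3:5119802-5120001, that of AT1G75490 chr1:28335126-28335325, the proximal one of *ERF15* chr2:13307693-13307892 and its distal one chr2:13309538-13309737. That of *AP2* is chr4:17397672-17397871.
ERF4, 1401 bp upstream: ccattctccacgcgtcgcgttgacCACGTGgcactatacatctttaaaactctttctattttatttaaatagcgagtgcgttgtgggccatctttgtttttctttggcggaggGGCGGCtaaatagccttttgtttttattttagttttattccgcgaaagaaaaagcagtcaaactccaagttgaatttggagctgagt
AT1G75490, 276 bp upstream: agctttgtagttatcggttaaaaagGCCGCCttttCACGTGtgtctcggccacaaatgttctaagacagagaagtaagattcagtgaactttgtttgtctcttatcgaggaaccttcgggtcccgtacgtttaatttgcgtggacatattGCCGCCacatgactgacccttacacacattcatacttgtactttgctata
ERF15, 221 bp upstream: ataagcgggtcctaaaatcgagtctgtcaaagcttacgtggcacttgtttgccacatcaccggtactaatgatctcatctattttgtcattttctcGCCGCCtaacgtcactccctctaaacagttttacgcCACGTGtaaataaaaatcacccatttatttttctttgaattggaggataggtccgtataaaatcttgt
ERF15, 2066 bp upstream: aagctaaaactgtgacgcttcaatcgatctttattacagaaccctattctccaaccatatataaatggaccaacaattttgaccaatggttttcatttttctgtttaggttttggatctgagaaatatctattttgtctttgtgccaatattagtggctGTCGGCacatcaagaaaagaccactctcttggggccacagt
AP2, 2838 bp upstream: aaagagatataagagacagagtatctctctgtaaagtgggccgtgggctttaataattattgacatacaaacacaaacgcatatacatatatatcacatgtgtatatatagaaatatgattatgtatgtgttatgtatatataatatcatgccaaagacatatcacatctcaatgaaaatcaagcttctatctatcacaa

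At AT1G75490 the window held a pair of GCC boxes, the first of them 10 bases before the G-box from start to start. In the proximal *ERF15* window the GCC box lay 36 bases before the G-box, and at *ERF4* the order was the other way, with the G-box 89 bases before the GCC box.

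Genes that act before or after ERF and DREB proteins were followed on lists written with earlier results of these data known. Upstream, 5 of 7 genes of ethylene signalling had a summit in all 4 libraries, against 14.9% of all protein-coding genes. At *EBF1* and *EBF2*, whose F-box proteins target EIN3 for degradation, the best folds were 5.80 and 5.90 for BRIP2 with 4.25 and 4.53 for BRIP1, and 4.86 and 5.49 for BRIP2 with 4.22 and 5.06 for BRIP1. *EIN3* itself, its partner *EIL1* (3045 to 3147 bp past its TSS) and the kinase gene *CTR1* were called as well. The receptor gene *ETR1* was called in no library. The *CTR1* summit lay past its 3′ end at the start of *HSFA3*, a heat factor gene downstream of DREB2A, so that both calls came from the same peak.

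Downstream, 5 of 9 hypoxia genes, 3 of 7 dehydration and heat genes, 0 of 3 defence genes and 0 of 2 genes of ligases that act on DREB2A were called in all 4 libraries, again against 14.9% of all genes. Lists of 2 or 3 genes are too short to be read against that share. Among the hypoxia genes, AT5G15120 (*PCO1*) encodes a plant cysteine oxidase that marks the B-2 factors for degradation when oxygen is present. Over its TSS the folds were 6.19 and 6.15 for BRIP2 and 3.20 and 3.29 for BRIP1. The BRIP2 values were far above both BRIP1 values, and the centred log2 difference of 0.69 ± 0.12 passed the threshold (limma adjusted p = 0.0312, the lowest of all regions). The call was lost without BRIP1 replicate 2 (0.67, adjusted p = 0.404), a fit in which the difference hardly moved and the lone BRIP1 library was assumed to vary like the BRIP2 pair. It was also lost in a fit with the replicate number as a block (0.69, adjusted p = 0.167) and when the log2 of −log10 p took the place of the fold (1.19, adjusted p = 0.0961). The other listed genes with summits in all 4 libraries were *LBD41* and AT4G33070 (*PDC1*, a pyruvate decarboxylase gene of fermentation) among hypoxia genes, and the dehydrin gene *ERD10* and the cold-inducible *KIN1* beside *HSFA3*. The *KIN1* summits lay 1928 to 1970 bp past its TSS. AT5G39890 (*PCO2*), which encodes a second such oxidase, had folds of 4.53 and 2.76 for BRIP2 and 2.59 and 3.42 for BRIP1, which overlapped. At AT3G10040 (*HRA1*), which encodes a factor that restrains the hypoxia response, they were 7.20 and 6.40 for BRIP2 and 5.54 and 6.14 for BRIP1.

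The group lists also held 5 AP2-domain genes that the rule did not reach, of which 3 were called in all 4 libraries and 2 in none. Of these, *ERF-1* and the redox factor gene *RRTF1* were called in all 4 libraries with folds of 4.66 and 4.0 for BRIP2 with 2.89 and 3.34 for BRIP1, and 4.40 and 3.80 for BRIP2 with 2.92 and 3.20 for BRIP1. *CEJ1* was called in all 4, and *EBP* (*RAP2.3*), the fifth gene of the oxygen-sensing group, and *DRNL* in none. With these genes counted, group IX had 12 of 15 genes in all 4 libraries, group VIII 5 of 12, group VII 2 of 5 and group X 2 of 8. The 3 SHINE genes of group V had none, and among DREB groups, group II had 8 of 13, group I 4 of 10, group III 2 of 7 and group IV 2 of 9. The share of all genes was 14.9%, and no test was made of any group against it.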

How the data were processed

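ChIP-seq peak lists of 4 libraries were analysed, grouped and numbered as their titles say, although the antibody label of BRIP1-GFP replicate 2 reads none. The other 14 of 18 samples were not analysed here. Alignment and peak calling are credited in the submitters' processing notes to tools including MACS2 2.1.1, Bowtie and deepTools, on TAIR10. Each deposited peak has its fold (a ratio to local control), the −log10 of its p-value and of its q-value, the summit offset and a score (left unused). The control library and the alignment settings are not given in the sources used here.

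Members, gene lists and tests were chosen with earlier results of these data known, and the subfamily grouping after the counts. Coordinates count from 1, and nuclear chromosomes of RefSeq TAIR10.1 were used. Fragments at a summit were solved from fold and p-value as MACS2 defines them. Regions were connected groups of peaks overlapping by 1 bp or more. limma 3.58.1 (R 4.3.3) was fitted to log2 folds of all 2982 regions, each library centred on its median, with Benjamini-Hochberg adjustment and a threshold of 0.05. Tests were checked on simulated data. Named were the 12 best-ranked members called in every library (by mean rank of their folds), those of 1 protein alone, well-known members, those with most summits or a shared peak, and list genes in all 4 libraries. Other members in all 4 libraries were added after their values were seen. The sequence of 1 member region is not reported here.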

Additional observations from a re-analysis of the deposited data

How the results depend on the processing

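The count of 42 members in all 4 libraries was 27 (23.7%, against 8.55% of all genes) at a −log10 q of at least 10, 15 (13.2%, against 3.97%) with folds of 3 or more, and 22 (19.3%, against 6.96%) with summits from 1000 bp upstream to the 3′ end. It was 35 (30.7%, against 11.1%) with lists of equal length, 32 (28.1%, against 9.96%) within 2000 bp of the TSS, 41 (36.0%, against 9.54%) when a peak went only to the nearest TSS, and 42 to 55 without each replicate in turn. Of the members, 8 stayed in all 4 libraries under each of these 6 filters and windows: *ERF12*, *RAP2.2*, AT1G22190, AT1G71520, AT1G75490, AT4G32800, AT5G07580 and AT5G61590. With only the 100 members that carry a subfamily note, chosen after seeing the data, the count was 38 (38.0%).

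The difference of 15.5 members between BRIP2 and BRIP1 libraries was 12 at a −log10 q of at least 10 and within the shorter window, 1 with lists of equal length, and 6.5 to 24.5 without each replicate (7 without BRIP2 replicate 1, 24 without BRIP2 replicate 2, 6.5 without BRIP1 replicate 1 and 24.5 without BRIP1 replicate 2, all added after seeing the data). The replicate numbers pair nothing in the labels, and deviations of same-numbered libraries correlated at 0.00830. With the replicate block it was again 15.5, from 33 for number 1 and -2 for number 2.

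Over all regions, 33 passed the threshold in all, 721 without centring, 0 with −log10 p in place of fold, 76 with 50% reciprocal overlap, 53 with summits within 150 bp, 19 at a −log10 q of at least 10, 0 with the replicate block, and 0 to 85 without each replicate (85 without BRIP2 replicate 1, 15 without BRIP1 replicate 1 and 0 without BRIP1 replicate 2, each with the lone library of a protein assumed to vary like the other pair). Member regions past the threshold were 15 without centring, 1 with 50% reciprocal overlap (*RAP2.4*, 2228 bp past its TSS, higher for BRIP2, 0.52 ± 0.13, limma adjusted p = 0.0264), and 0 under the others. Members' summits were 71.6% intergenic on average over the libraries, 70.4 to 72.4% without each replicate, and 75.0% at a −log10 q of at least 10. The members' motif shares kept their side of the share over all regions in windows of 100 and 300 bp, but for the TCP site and the GA repeat, which turned at 100 bp (11.5% against 13.4%, and 13.5% against 13.9%). Depth limits the calls: with 23.2 to 41.2 background fragments, folds under about 1.6 to 1.7 were not listed at background.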
